A study of Homo sapiens with 9 samples.

Results

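L1CAM, KRT19 and GJA1 are 3 genes of cell adhesion and epithelial identity, taken by gene symbol from an RNA sequencing table of Caki-1 cells. Caki-1 is an established human cell line of clear cell renal carcinoma. They make up 3 of the 6819 genes and 4 of the 20909 transcripts in the table, with 2 transcripts listed for L1CAM and 1 each for KRT19 and GJA1. The study lowered TAF1D, a subunit of the factor that recruits RNA polymerase I to ribosomal RNA genes, with short hairpin RNA. The groups were SH3 and SH1, both with the genotype TAF1D knockdown, and control, with the genotype WT. Each group had 3 libraries of total RNA. The labels do not explain SH1 and SH3, do not describe what the control cells received and do not say whether replicates were separate cultures, so p-values measure only the spread between these samples, which may be technical. The 3 genes were chosen on their measured levels, because these differed between groups in these same libraries. Their differences are therefore a description, with no p-value. Where the text says whether they passed the threshold of the fit, in any contrast, it is for completeness and nothing is read from it.

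The table itself was selected. Its 20909 transcripts all differ by at least 2-fold in estimated count between SH1 1 and control 1, against 51.51% to 64.85% of them in each of 35 other library pairs. By construction, SH1 1 and control 1 are thus more extreme, and a gene sum covers only the listed transcripts of that gene. Estimated counts of listed transcripts added up to 1358215 to 1596467 per library, which is not the depth of a library, and their TPM added up to 4.2% to 5.18% of the TPM total of the library. TAF1D was not analysed here, so the labels could not be checked against its level. Of 23 renal tubule and clear cell carcinoma markers 6 were in the table, with summed levels of 15.6 to 23.3 FPKM in SH3, 13.0 to 19.0 FPKM in SH1 and 9.25 to 15.1 FPKM in control. Of these 6, 3 had positive and 3 negative fold changes in SH1 against control. VEGFA had the highest mean of the 6 in each group, at 12.2 FPKM in SH3, 8.10 FPKM in SH1 and 6.44 FPKM in control. PAX8, a transcription factor that marks renal epithelium, was at 2.88, 9.97 and 3.05 FPKM in SH3, which overlapped control. It was at 6.65, 4.44 and 5.16 FPKM in SH1 and at 2.26, 3.08 and 1.44 FPKM in control. LHX1, a transcription factor of kidney development, was at 1.42, 0 and 0 FPKM in SH3. Its SH1 libraries had 0.54, 0 and 1.09 FPKM, and its control libraries 1.67, 3.97 and 0 FPKM. Of the markers of other cell types, 0 of 9 endothelial, 1 of 9 fibroblast, 1 of 11 blood and 1 of 10 neural genes were in the table.

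Epithelial cells hold together through adhesion molecules at the cell surface, through keratin filaments anchored at junctions and through gap junction channels that join neighbouring cells. L1CAM is a transmembrane adhesion molecule of the immunoglobulin superfamily, best known for axon growth in the nervous system and also made by several carcinomas, where it has been linked to migration. KRT19 encodes an acidic keratin of simple and ductal epithelia. GJA1 encodes the most widely expressed connexin, a protein whose hexamers form gap junction channels. TJP1 is a scaffold that binds the tail of this connexin at the membrane.

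The 2 listed L1CAM transcripts are shown first because they differ in small exons. NM_001143963 matched a GENCODE 29 transcript on the minus strand of the X chromosome (GRCh38, chrX:153861514-153875944) with 26 exons and 1248 codons. NM_001278116 matched one with 29 exons and 1257 codons (chrX:153861514-153886174) whose first exon lies farther upstream and is not fully coding. That GENCODE transcript is also the match of NM_000425, another RefSeq transcript, which was not analysed here. NM_001278116 holds 2 short coding exons that NM_001143963 lacks, of 15 bases (exon 3, chrX:153873228-153873242) and 12 bases (exon 28, chrX:153863368-153863379). The short exon near the 3′ end of the coding sequence lies in the part for the cytoplasmic tail. In the lines below the alternative exon is in capitals, with 15 bases of the neighbouring exons on either side, and each inclusion is followed by the junction that NM_001143963 has in its place.
NM_001278116, exon 3 included: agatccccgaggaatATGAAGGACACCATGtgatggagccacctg
NM_001143963, exon 3 skipped: agatccccgaggaattgatggagccacctg
NM_001278116, exon 28 included: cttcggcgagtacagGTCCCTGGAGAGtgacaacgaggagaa
NM_001143963, exon 28 skipped: cttcggcgagtacagtgacaacgaggagaa
The split of L1CAM reads between the 2 transcripts rests on reads across these stretches and the first exon. Such reads were not counted here, and the split was taken as the authors estimated it.

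L1CAM RNA was high in SH1, intermediate in SH3 and low in control. Its summed level was 43.9, 44.7 and 49.3 FPKM in SH3 1 to 3. The SH1 libraries had 127, 138 and 175 FPKM, and the control libraries had 22.7, 31.2 and 30.4 FPKM. FPKM is the number of fragments per kilobase of transcript, scaled to the mapped fragments of the library. No group overlapped another. SH1 averaged 147 ± 25.0 FPKM, against 28.1 ± 4.69 FPKM in control (SD, n = 3 each), a ratio of 5.22. SH3 averaged 46.0 ± 2.94 FPKM (SD, n = 3), 1.63 times the control mean and 0.313 times the SH1 mean. Among the 6819 gene sums L1CAM had rank 27 by mean FPKM in SH3, rank 5 in SH1 and rank 51 in control.

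Both L1CAM transcripts had the same order of groups. NM_001143963 was the more abundant, at 34.2, 36.8 and 39.9 FPKM in SH3, 95.1, 107 and 129 FPKM in SH1, and 17.3, 27.7 and 26.1 FPKM in control. NM_001278116, with the added exons, was at 9.74, 7.92 and 9.44 FPKM in SH3, 32.2, 30.9 and 46.6 FPKM in SH1, and 5.40, 3.51 and 4.37 FPKM in control. Neither transcript overlapped between any pair of groups, as held for 16.1% of 17495 tested transcripts in SH1 against control, 12.3% in SH3 against control and 14.5% in SH3 against SH1. In SH1 NM_001143963 averaged 4.65 times and NM_001278116 8.26 times its control mean.

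The share of NM_001278116 in the estimated counts of both transcripts was 22.7%, 18.1% and 19.5% in SH3. It was 25.8%, 22.8% and 27.1% in SH1 and 24.2%, 11.5% and 14.7% in control. Control 1 was the library that set the control range. Its share lay inside the SH1 range, whereas the other control libraries lay below all SH1 and SH3 libraries. The shares in SH3 and SH1 did not overlap, and those in control overlapped both.

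**Figure D1:**
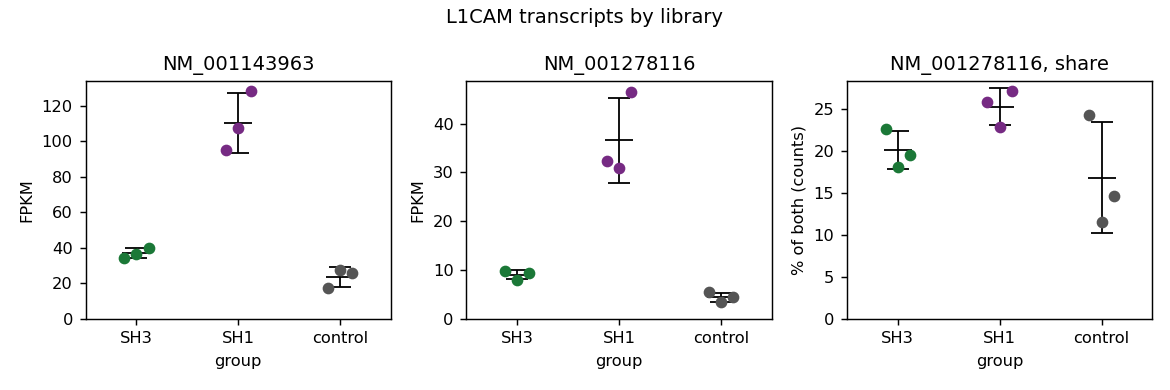
The left and middle panels plot the level of each listed L1CAM transcript in FPKM by library, and the right panel the share of NM_001278116 in the estimated counts of both, in percent, for SH3, SH1 and control. Points are libraries and bars are mean ± SD (n = 3); both transcripts were highest in the 3 SH1 libraries, and the share of control 1 (24.2%) lay within the SH1 range.

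KRT19 had the opposite order, lowest in SH1 and highest in control. NM_002276 was at 60.3, 66.6 and 60.6 FPKM in SH3. The SH1 libraries had 15.4, 17.5 and 21.6 FPKM, and the control libraries had 70.1, 89.5 and 82.5 FPKM. Again no group overlapped another. SH1 averaged 18.2 ± 3.15 FPKM and control 80.7 ± 9.81 FPKM (SD, n = 3 each), a ratio of 0.225. SH3 averaged 62.5 ± 3.55 FPKM (SD, n = 3), 0.774 times the control mean and 3.44 times the SH1 mean. KRT19 had rank 15 of 6819 by mean FPKM in SH3, rank 140 in SH1 and rank 9 in control. Its transcript has 6 exons on the minus strand of chromosome 17 (GRCh38, chr17:41523617-41528308). The annotation holds 5 processed pseudogenes of KRT19, to which reads of the gene could be assigned.

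GJA1 was low in SH1 alone. NM_000165 was at 20.6, 19.4 and 20.6 FPKM in SH3, 11, 10.2 and 10.2 FPKM in SH1, and 22.9, 18.8 and 19.0 FPKM in control. The SH1 libraries lay below all others, and SH3 overlapped control. SH1 averaged 10.4 ± 0.465 FPKM and control 20.2 ± 2.32 FPKM (SD, n = 3 each), a ratio of 0.515. The SH3 mean of 20.2 ± 0.701 FPKM (SD, n = 3) was 0.997 times the control mean. GJA1 had rank 114 by mean FPKM in SH3, rank 370 in SH1 and rank 104 in control. Its transcript has 2 exons on the plus strand of chromosome 6 (GRCh38, chr6:121435577-121449727), and the annotation holds 1 processed pseudogene.

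**Figure D2:**
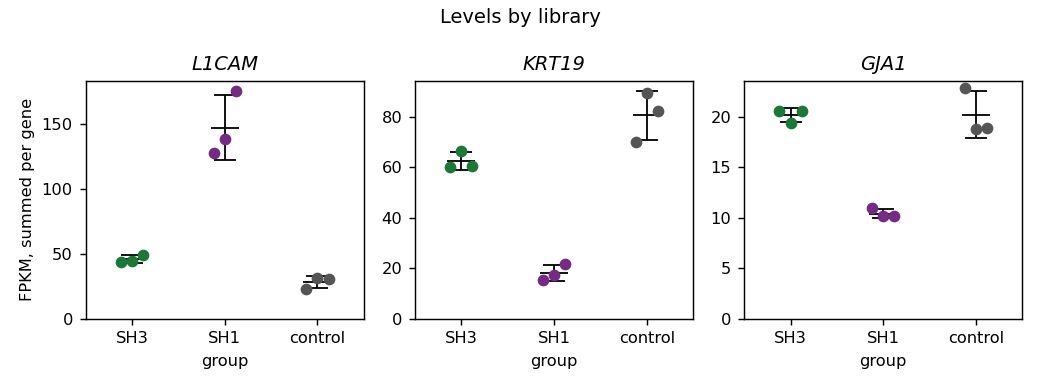
Summed level of L1CAM, KRT19 and GJA1 in FPKM (y axis, from 0) by library in SH3, SH1 and control. Points are libraries and bars are mean ± SD (n = 3); SH1 stood apart for each gene, with L1CAM at 127 FPKM or more, KRT19 at 21.6 FPKM or less and GJA1 at 11 FPKM or less.

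The counts behind these values were large. Counting error alone, taken as the square root of the estimated count, was 0.755% to 2.12% of the L1CAM sum, 2.04% to 4.99% of KRT19 and 2.71% to 4.07% of GJA1. The coefficient of variation of L1CAM between libraries of a group was 6.40% in SH3, 17.0% in SH1 and 16.7% in control, above its counting error. KRT19 varied by 5.68% in SH3, 17.3% in SH1 and 12.2% in control. GJA1 varied by 3.48% in SH3, 4.46% in SH1 and 11.5% in control. Control 1 had the lowest L1CAM and KRT19 and the highest GJA1 of its group, and SH1 3 had the highest L1CAM and KRT19 of its group.

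Set against each other within a library, L1CAM and KRT19 traded places. The ratio of L1CAM to KRT19 in FPKM was 0.728, 0.672 and 0.815 in SH3, 8.27, 7.88 and 8.11 in SH1, and 0.324, 0.349 and 0.369 in control. KRT19 RNA was therefore the more abundant of the pair in all SH3 and control libraries and L1CAM in all SH1 libraries. A ratio within a library shows unequal change, not which gene changed. Over SH1 libraries it varied by 2.41%, less than the 17.0% of L1CAM or the 17.3% of KRT19 alone. In bulk RNA a change in the number of cells with a gene and a change in RNA per cell cannot be told apart.

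The fit of all gene sums gave the size of each difference. Estimated counts were rounded and fitted with the edgeR quasi-likelihood method over all 9 libraries, where 6398 gene sums passed the filter on low counts, all 3 genes among them. In SH1 against control the log2 fold change was 2.22 ± 0.20 for L1CAM, -2.32 ± 0.20 for KRT19 and -1.11 ± 0.12 for GJA1 (SE, n = 3 libraries per group). All 3 passed the adjusted threshold of 0.05, as did 2.14% of gene sums, and all 3 had no overlap in FPKM, as did 20.2%. The median over all gene sums was -0.03. L1CAM had rank 282 from the highest and KRT19 rank 249 from the lowest of 6398 fold changes, and GJA1 rank 869 from the lowest. The estimated counts of SH1 1 and control 1 differed by 2.10-fold for GJA1, just inside the 2-fold limit of the table. They differed by 4.58-fold for KRT19 and by 5.45-fold and 5.94-fold for the L1CAM transcripts. Fitted without SH1 1 and control 1, the log2 fold changes were 2.21, -2.27 and -1.03 for L1CAM, KRT19 and GJA1.

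SH3 differed from control by less. The log2 fold change was 0.62 ± 0.19 for L1CAM, -0.46 ± 0.19 for KRT19 and -0.08 ± 0.12 for GJA1 (SE, n = 3 libraries per group). L1CAM and KRT19 had the directions they had in SH1, and GJA1 lay within 1 SE of no difference (0.00 with limma on log2(FPKM + 1)). In this contrast 0 of 3 passed the threshold with edgeR or in any of the 20 alternatives, DESeq2 and limma among them, beside 0.406% of all gene sums with edgeR, and L1CAM and KRT19 did not overlap in FPKM, beside 17.3%. Without SH1 1 and control 1 the values were 0.47 for L1CAM, -0.57 for KRT19 and -0.02 for GJA1. SH1 and SH3 were set against the same control libraries, so their differences from control are not independent of each other.

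SH3 against SH1 used no control library. L1CAM was lower in SH3 (log2 fold change -1.60 ± 0.19), KRT19 higher (1.86 ± 0.19) and GJA1 higher (1.03 ± 0.12; SE, n = 3 libraries per group). All 3 passed the threshold, beside 1.36% of gene sums, and had no overlap in FPKM, beside 22.4%, but the genes were chosen for differing between groups in these libraries, so the count is no evidence about them. For L1CAM the threshold was missed without SH3 1 (-1.56) or without SH3 2 (-1.57). For the average of SH1 and SH3 against control the values were 1.42 ± 0.18 for L1CAM, -1.39 ± 0.16 for KRT19 and -0.60 ± 0.10 for GJA1. All 3 passed, beside 1.11% of gene sums, and the same limit applies. L1CAM missed it without control 3 (1.47), and GJA1 passed in only 5 of 20 alternatives. This average joins a large difference in SH1 with a small one in SH3, and none of the 3 genes passed in SH3 alone.

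**Figure D3:**
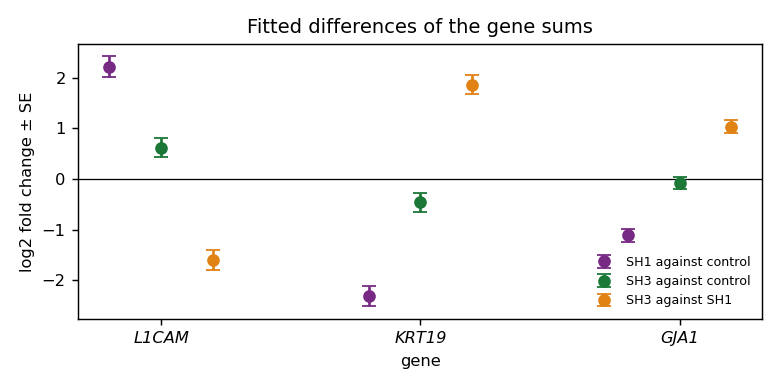
Fitted log2 fold change ± SE (y axis) of the summed counts of L1CAM, KRT19 and GJA1 in SH1 against control, SH3 against control and SH3 against SH1, from 1 fit of 9 libraries. SH1 lies far from control for each gene (2.22, -2.32 and -1.11), and SH3 lies between SH1 and control for L1CAM and KRT19 and at control for GJA1.

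Fitted one by one, the transcripts of KRT19 and GJA1 gave sizes similar to their sums with wider errors. The 2 L1CAM transcripts differed in size. In SH1 against control NM_001278116 had a log2 fold change of 2.94 ± 0.26 and NM_001143963 one of 2.11 ± 0.20, beside 2.22 ± 0.20 for the sum (SE, n = 3 libraries per group). In SH3 against control NM_001278116 had a log2 fold change of 0.99 ± 0.25 and NM_001143963 one of 0.60 ± 0.19. Neither passed the threshold, which 0.0286% of 17495 transcripts did. In SH1 against control GJA1 had -1.07 ± 0.23 as a single transcript and missed the threshold, which 0.137% of transcripts passed, while as a gene sum it passed. GJA1 has 1 listed transcript, so both fits used the same counts and differed in the other features fitted with it. The deposited TPM, scaled by the whole library, gave means of 101 ± 7.14 in SH3, 343 ± 48.6 in SH1 and 62.7 ± 7.15 in control for L1CAM. KRT19 had 137 ± 5.41, 42.5 ± 6.09 and 180 ± 10.1 TPM in the same order of groups, and GJA1 had 44.4 ± 2.27, 24.5 ± 1.86 and 45.6 ± 8.33 TPM (SD, n = 3 each).

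The stretch before the start site is shown for the members found in the RefSeq promoter table (GRCh38.p14), which matched 2 of 3, L1CAM and GJA1. Capitals mark matches to GGGCGG, the core recognised by SP1, or TGANTCA, the core recognised by AP-1. Both strands were searched in the 250 bases before the start, also for TATAAA. The L1CAM window is chrX:153876015-153876264 on the minus strand, and its start site lies 70 bases before the first base of the GENCODE match of NM_001143963. The match of NM_001278116 starts farther upstream, at base 153886174, and the bases before that start are not shown.
L1CAM: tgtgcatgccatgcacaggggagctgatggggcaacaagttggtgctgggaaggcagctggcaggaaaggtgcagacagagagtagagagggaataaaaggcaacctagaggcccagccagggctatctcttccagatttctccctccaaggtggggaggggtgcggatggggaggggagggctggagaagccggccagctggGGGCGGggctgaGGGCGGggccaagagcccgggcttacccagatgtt
The L1CAM window held 2 matches to GGGCGG, from -47 to -42 and from -35 to -30, and none to the other motifs. The RefSeq promoter table also has an L1CAM window before base 153875944, the GENCODE start of the match of NM_001143963. Counted from that start, the same 2 matches lie from -117 to -112 and from -105 to -100. For GJA1 the bases before the GENCODE start (chr6:121435396-121435576, plus strand) are followed by 30 bases around its match (chr6:121435586-121435615), since the GENCODE start lies 69 bases before that of RefSeq.
GJA1: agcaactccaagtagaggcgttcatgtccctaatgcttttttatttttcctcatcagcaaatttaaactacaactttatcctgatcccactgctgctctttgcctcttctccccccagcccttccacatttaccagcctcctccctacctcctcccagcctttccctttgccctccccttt
GJA1, match: cctcctcccagtTGAGTCAgtggcttgaaa
The GJA1 window held 1 match to TGANTCA, from -48 to -42 before the RefSeq start, and none to GGGCGG or TATAAA. Of all 35116 windows, 6.57% held TGANTCA, 42.6% GGGCGG and 10.7% TATAAA. G and C made up 62.8% of the L1CAM window and 48% of the GJA1 window, against a median of 58% over all windows. These matches are letters in a window and no measurement of binding.

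The genes whose levels followed each member most closely were taken by Pearson correlation of log2(FPKM + 1) over the 9 libraries, among 3906 gene sums with a mean of at least 1 FPKM. The 9 points share 3 groups and their scaling, so the coefficients are descriptions of 1 pattern of groups. L1CAM was followed by SLC68A1 (r = 0.997), the adhesion receptor gene ADGRG1 (0.993), MEGF6 (0.989), the formin gene FMNL1 (0.987) and STMN3, a stathmin of microtubules (0.984). ADGRG1 averaged 12.4 ± 0.947 FPKM in SH3, 38.9 ± 5.12 FPKM in SH1 and 8.31 ± 1.60 FPKM in control. STMN3, at 143 ± 3.86 FPKM in SH3, 265 ± 50.0 FPKM in SH1 and 119 ± 12.9 FPKM in control, was the most abundant of the 5 (SD, n = 3 each).

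KRT19 was followed by GLI2, a transcription factor of Hedgehog signalling (0.991), the chromatin remodelling gene INO80C (0.987), IGFBP3 (0.979) and POFUT1, which adds fucose to Notch receptors (0.965). IGFBP3, which binds insulin-like growth factors, averaged 15.1 ± 0.257 FPKM in SH3, 2.56 ± 0.240 FPKM in SH1 and 28.0 ± 2.69 FPKM in control (SD, n = 3 each). Relative to the control mean, its SH3 mean was lower than that of KRT19, whereas the difference in FPKM was larger for KRT19. GJA1 was followed by UBASH3B (0.991), FAM98B (0.979), ANKRD13A (0.973), the lactate transporter gene SLC16A1 (0.971) and the semaphorin gene SEMA3E (0.967). SLC16A1 averaged 56.3 ± 0.458 FPKM in SH3, 19.0 ± 1.76 FPKM in SH1 and 43.8 ± 6.87 FPKM in control (SD, n = 3 each). Between the members r was -0.943 for L1CAM and KRT19, -0.95 for L1CAM and GJA1 and 0.935 for KRT19 and GJA1, over 9 libraries.

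**Figure D4:**
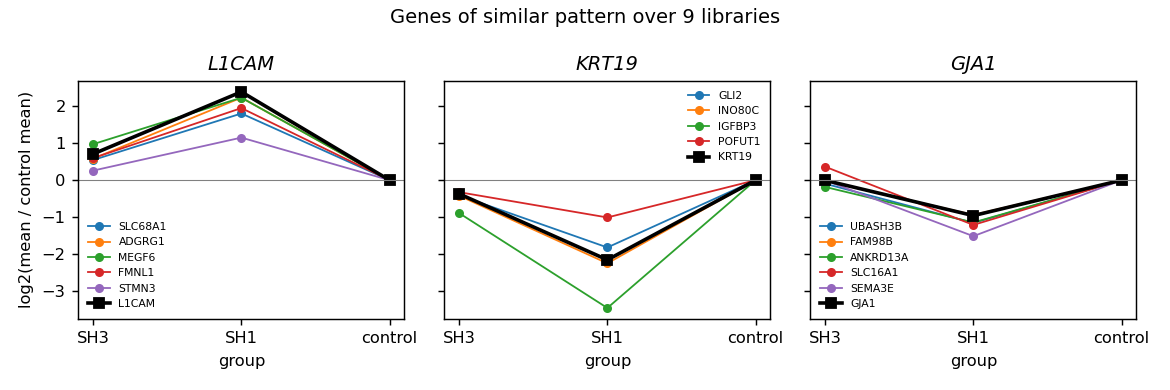
For each member (black squares) and the genes named beside it for their similar pattern (coloured), log2 of the ratio of the group's mean FPKM to the control mean (y axis) in SH3, SH1 and control. The genes beside L1CAM peak in SH1, and those beside KRT19 are lowest in SH1 with SH3 between. Those beside GJA1 are low in SH1 with SH3 near control, except SLC16A1, whose mean was 56.3 FPKM in SH3 and 43.8 FPKM in control.

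In SH1 against control other junction and adhesion genes in the table passed the edgeR threshold about as often as all gene sums. Their shares at an unadjusted p under 0.05 and with DESeq2 were higher than those of all gene sums, and no set test was run. The 10 lists around the members held 216 other genes, of which 82 were in the table and 77 were tested. The lists were chosen with earlier results of these data known, so counts and p-values of listed genes are descriptions. In SH1 against control 2 of 77 passed the threshold, both lower (TJP1 and TAGLN), beside 2.14% of all gene sums, and 15 had an unadjusted p under 0.05, beside 11.5%. DESeq2 called 11, beside 7.46% of gene sums with an adjusted p, and limma 1, 1 and 2 on log2(FPKM + 1), log2(FPKM + 0.1) and log2(TPM + 1), beside 2.55%, 2.66% and 2.69%. The counts of single lists are read against these shares. The median of the 77 was -0.23, against -0.03 over all gene sums. In SH3 against control edgeR called 0 of 77, beside 0.406% of gene sums, with 9 at an unadjusted p under 0.05, beside 8.39%. DESeq2 called 6, beside 4.09%, and the 3 limma settings 1, 0 and 1, beside 0.875%, 0.844% and 0.703%. The average of SH1 and SH3 gave 1 of 77 with edgeR, lower than control, beside 1.11% of gene sums. It gave 13 at an unadjusted p under 0.05, beside 651 of 6398 gene sums, and 8 with DESeq2, beside 360 gene sums. SH3 against SH1 gave 1 of 77 with edgeR, higher in SH3, beside 1.36% of gene sums. There 18 had an unadjusted p under 0.05, beside 691 of 6398 gene sums, and DESeq2 called 8, beside 415 gene sums.

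TJP1, the connexin-binding scaffold of tight and gap junctions, fell in SH1, as GJA1 was lower there. Its sum of 12 listed transcripts was 6.68, 4.63 and 5.06 FPKM in SH3, 3.30, 3.03 and 3.05 FPKM in SH1, and 7.14, 4.53 and 6.78 FPKM in control. The SH1 libraries lay below all others, and 20.2% of gene sums had no overlap between SH1 and control. The log2 fold change in SH1 against control was -1.11 ± 0.21 (adjusted p = 0.0404, edgeR quasi-likelihood test). The adjusted p was 0.0529 to 0.166 on leaving out SH1 1, SH1 2, SH1 3, SH3 1, SH3 2, SH3 3, control 1 or control 3 in turn, and 8.95e-05 to 0.239 over the alternatives. In SH3 against control it had -0.23 ± 0.20 (adjusted p = 0.957). Of the 9 tested connexin partners and kinases TJP1 was the 1 that passed in SH1, also with DESeq2, and with limma 0 passed. Among the 11 tested tight junction genes edgeR and DESeq2 each called 1 in SH1 against control and limma 0. At an unadjusted p under 0.05 there was 1 of the 11. CAV1, the caveolar coat protein, had -0.88 ± 0.40 (adjusted p = 0.46), and PRKCD, a protein kinase C, had 1.45 ± 0.87 (adjusted p = 0.661). Of other connexins and pannexins only GJA3 and PANX2 were in the table, and edgeR called 0 of these 2 in SH1 against control, with 1 at an unadjusted p under 0.05 and 1 called by DESeq2. Over all gene sums the shares in this contrast were 2.14% with edgeR, 11.5% at an unadjusted p under 0.05 and 7.46% with DESeq2. PANX2, a large-pore channel protein, had 0.91 ± 0.29 in SH1 against control (adjusted p = 0.243).

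Of the 26 other keratins and simple epithelial markers 6 were in the table, with no other keratin among them. The table kept only transcripts at least 2-fold apart between SH1 1 and control 1. For this and the other lists, absence from it does not show absence of expression. In SH1 against control edgeR called 0 of these 6, with 1 at an unadjusted p under 0.05, and DESeq2 and limma called 0. Most were low. ESRP1, a splicing regulator of epithelial cells, averaged 0.820 FPKM in SH3, 0.537 FPKM in SH1 and 0.620 FPKM in control, and the mucin MUC1 0.393, 0.477 and 0.477 FPKM in that order of groups. The desmosome list had 5 tested genes, all with positive values in SH1 against control. EdgeR called 0 of these 5, with 1 at an unadjusted p under 0.05, DESeq2 called 1 and limma at most 1. For both lists the shares over all gene sums were 2.14% with edgeR, 11.5% at an unadjusted p under 0.05 and 7.46% with DESeq2. JUP, the plakoglobin of desmosomes and adherens junctions, averaged 7.05 ± 0.0982 FPKM in SH3, 11.4 ± 2.59 FPKM in SH1 and 5.45 ± 1.28 FPKM in control (SD, n = 3 each), with 0.90 ± 0.25 in SH1 against control (adjusted p = 0.156). PPL, the cornified envelope and desmosome linker periplakin, had 1.28 ± 0.99 in SH1 against control (adjusted p = 0.823, edgeR quasi-likelihood test). Its SH1 libraries, at 6.78, 7.92 and 8.19 FPKM, nevertheless lay above all others, and 20.2% of gene sums had no overlap between SH1 and control. PPL was at 2.5, 2.83 and 3.06 FPKM in control and at 2.68, 0.05 and 2.98 FPKM in SH3. The fit covered all 9 libraries, and the part of SH3 2 in this SE was not tested.

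Among adherens junction genes CDH6, a cadherin of the developing kidney, passed in the average of SH1 and SH3 against control. It was at 0.0900, 0.110 and 0.110 FPKM in SH3, 0.230, 0.330 and 0.350 FPKM in SH1, and 1.08, 0.780 and 0.890 FPKM in control. No group overlapped another. Of all gene sums 20.2% did not overlap in SH1 against control, 17.3% in SH3 against control and 22.4% in SH3 against SH1. The log2 fold change of the average was -2.41 ± 0.36 (adjusted p = 0.0246, edgeR quasi-likelihood test). Leaving out any 1 of the 9 libraries gave an adjusted p of 0.0581 to 0.12, and the alternatives together 2.34e-14 to 0.147. In the average edgeR called 1 of 10 tested adherens junction genes, beside 1.11% of gene sums. There 5 of the 10 had an unadjusted p under 0.05, beside 651 of 6398 gene sums. In SH1 against control edgeR called 0 of 10 tested adherens junction genes, beside 2.14% of gene sums. Of the 10, 5 had an unadjusted p under 0.05, beside 11.5% of gene sums. DESeq2 called 3, beside 7.46%, and the 3 limma settings 0, 0 and 1, beside 2.55%, 2.66% and 2.69%. Fold changes were positive for 3 genes and negative for 7. CTNND1, the catenin that holds cadherins at the surface, had -0.39 ± 0.26 in SH1 against control (adjusted p = 0.743), and PKP4 had -0.24 ± 0.19 (adjusted p = 0.824).

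Of the L1CAM relatives F11R, MCAM, CADM4 and CD44 edgeR called 0 of 4 in SH1 against control, with 0 at an unadjusted p under 0.05 and 0 by DESeq2 or limma. F11R, a junctional adhesion molecule, had 0.41 ± 0.32 in SH1 against control (adjusted p = 0.824). CD44, a hyaluronan receptor, had -0.65 ± 0.49 (adjusted p = 0.813), and its control libraries ranged from 1.54 to 9.51 FPKM. Of 9 tested partners and sheddases of L1CAM edgeR called 0 in SH1 against control, with 1 at an unadjusted p under 0.05, 1 by DESeq2 and 0 by limma. Moesin (MSN), which links the L1CAM tail to actin, had -0.43 ± 0.84 in SH1 against control (adjusted p = 0.99). NRP1, a coreceptor that binds L1CAM, had -0.86 ± 0.75 (adjusted p = 0.87). Of 18 tested integrin and focal adhesion genes edgeR called 0, with 3 at an unadjusted p under 0.05, 3 by DESeq2 and 0 by limma. The counts of these lists stand beside 2.14% of gene sums with edgeR, 11.5% at an unadjusted p under 0.05 and 7.46% with DESeq2. PTK2, the focal adhesion kinase, averaged 22.8 ± 0.437 FPKM in SH3, 21.5 ± 2.96 FPKM in SH1 and 21.4 ± 1.90 FPKM in control (SD, n = 3 each), with -0.14 ± 0.13 in SH1 against control (adjusted p = 0.888).

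TAGLN, an actin-binding protein of smooth muscle and mesenchymal cells, was the 1 gene that edgeR called among 8 tested mesenchymal genes. It was at 4.67, 5.30 and 4.80 FPKM in SH3, 1.11, 1.37 and 1.44 FPKM in SH1, and 3.19, 4.59 and 4.52 FPKM in control. The SH1 libraries lay below all others, as for KRT19 and GJA1, and 20.2% of gene sums had no overlap between SH1 and control. The log2 fold change in SH1 against control was -1.81 ± 0.27 (adjusted p = 0.0133, edgeR quasi-likelihood test, 2.21e-09 to 0.101 over the alternatives). Without SH1 1, SH1 2 or control 3 the adjusted p was 0.0595, 0.0668 and 0.0547 in turn. In SH3 against control the value was 0.17 ± 0.26 (adjusted p = 0.999). Since the lists were chosen with earlier results of these data known, the p-values of TAGLN are descriptions and no independent evidence. Of the other mesenchymal genes ZEB1 had -0.10 ± 0.32 (adjusted p = 0.998) and FOXC2 -1.55 ± 0.33 (adjusted p = 0.0637) in SH1 against control. In that contrast 3 of the 8 had an unadjusted p under 0.05, beside 11.5% of gene sums. DESeq2 called 2, beside 7.46%, and each limma setting 1, beside 2.55%, 2.66% and 2.69%. Fold changes were negative for 7 and positive for 1, with a median of -1.14, against -0.03 over all gene sums.

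**Figure D5:**
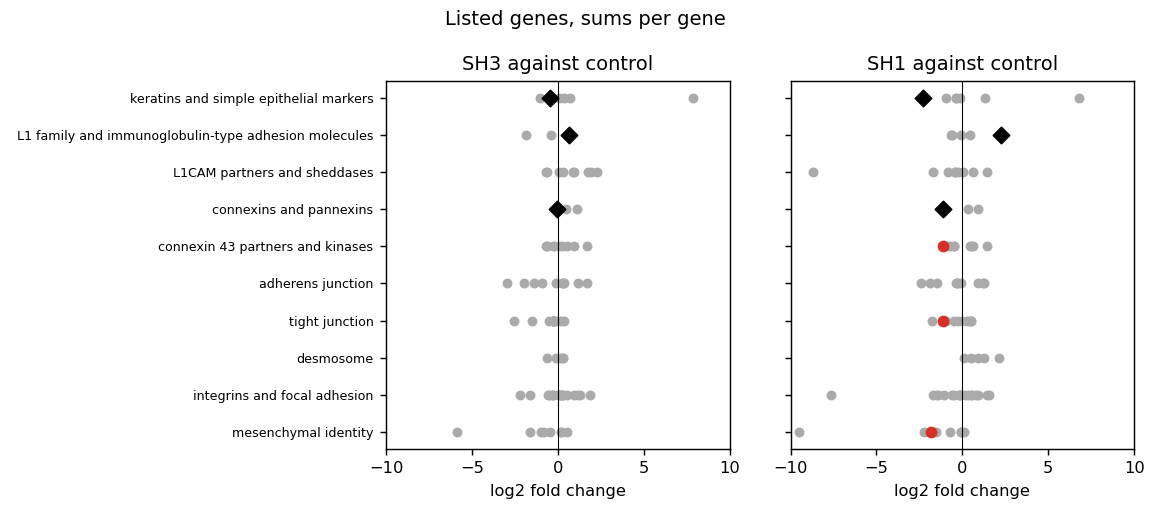
Log2 fold change (x axis) of the tested genes of 10 lists (y axis) in SH3 against control, left, and SH1 against control, right. Black diamonds are L1CAM, KRT19 and GJA1, red points passed the adjusted threshold of 0.05 (TJP1, which stands in 2 lists, and TAGLN, in SH1) and grey points did not; points far out belong to genes with counts near 0 in a group.

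Markers of other cell types were measured beside these differences. CD68, a lysosomal protein listed as a blood cell marker, was at 12.7 to 14.1 FPKM in SH3, 13.2 to 17.8 FPKM in SH1 and 7.84 to 12.5 FPKM in control. Both SH3 and SH1 lay above control without overlap, as 17.3% and 20.2% of gene sums did not overlap control. SH3 overlapped SH1, unlike for L1CAM. The fibroblast marker PDGFRB was at 0.280 to 0.310 FPKM in SH3, 0.210 to 0.340 FPKM in SH1 and 0.160 to 0.330 FPKM in control. The neural marker SNAP25 was at 0 in all SH3 libraries, at 0 to 0.330 FPKM in SH1 and at 0 to 0.0300 FPKM in control. The other markers of these lists were not analysed here, and the part of such cells in the results was not tested.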

How the data were processed

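RNA sequencing of Caki-1 gave 9 libraries. Per the file headers, the authors computed FPKM, TPM and an estimated count (expected count) for each transcript and library before depositing them. The deposited normalized read count, a linear signal, equals the estimated count over 1 factor per library in 100% of values. Aligner and counter are not given in the sources used here. The submitters' processing notes name the mouse build mm10, whereas 20900 of 20909 transcripts carry human gene numbers, and values were read as human.

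Estimated counts were summed per gene number, rounded and tested with the edgeR quasi-likelihood method (edgeR 4.0.16, R 4.3.3, TMM scaling, filterByExpr with a minimum count of 10, robust dispersions, 1 mean per group), with Benjamini-Hochberg adjustment over all features and a threshold of 0.05. The SE is the fold change over the square root of F. FPKM was used for levels. The procedure was checked on simulated counts. The members and lists were chosen with earlier results of these data known. Named list genes were all that passed and up to 4 of the highest mean FPKM per list; the others named were chosen after their values were seen. A few genes that these rules name are not reported here. Alternatives were DESeq2 1.42.0 (size factors, or Wald test), other filters, limma 3.58.1 on log2 of FPKM plus 1 or 0.1, only the groups compared, a replicate block, leaving out each library, and the other 7 libraries without SH1 1 and control 1. The authors' factors and log2(TPM + 1) were added after seeing the data.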

Additional observations from a re-analysis of the deposited data

Results flagged for a closer look

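TAGLN, the mesenchymal gene called in the lists, differed between the knockdown groups. Its log2 fold change in SH3 against SH1 was 1.99 ± 0.27 (adjusted p = 0.0125, edgeR quasi-likelihood test), higher in 3 of 3 SH3 libraries. The adjusted p was 0.0544 without SH1 1, 0.0705 without SH1 2, 0.055 without SH3 1, 0.056 without SH3 2 and 0.0594 without SH3 3, and ranged from 1.9e-11 to 0.0705 over the alternatives. Since the lists were chosen with earlier results of these data known, these p-values are descriptions and no independent evidence about TAGLN.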

How the results depend on the processing

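Over 20 alternative fits no log2 fold change of L1CAM, KRT19 or GJA1 turned its direction past its error, and most moved by less than the spread between replicates. The exceptions in size were the L1CAM transcript NM_001278116 taken alone (2.94 in SH1, 0.99 in SH3, 1.96 for their average and -1.95 in SH3 against SH1) and limma-trend. On log2(FPKM + 1) limma gave -2.10 for KRT19 in SH1 and -0.89, -0.44 and 0.89 for GJA1 in SH1, the average and SH3 against SH1. On log2(FPKM + 0.1) it gave -0.94, -0.47 and 0.95 for GJA1, and on log2(TPM + 1) -2.07 for KRT19 and -0.86, -0.44 and 0.83 for GJA1. These settings shifted the median of all gene sums by 0.131, 0.160 and 0.200 in SH1 against control. Leaving out 1 library gave 2.05 to 2.40 for L1CAM, -2.45 to -2.12 for KRT19 and -1.16 to -1.06 for GJA1 in SH1 against control. GJA1 lost its call in SH1 against control when only the groups compared were fitted (-1.07), which leaves fewer samples for the spread.

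Counts of calls depended on the setting. In SH1 against control the 2 listed genes called became 11 with DESeq2, 1 with limma on log2(FPKM + 1) or log2(FPKM + 0.1), 0 with only the groups compared, 1 without SH1 1 and control 1, 1 with the authors' factors and 0 to 3 without 1 library. The 137 gene sums became 461 with DESeq2, 45 with only the groups compared, 57 in the other 7 libraries and 59 to 110 without 1 library. The 24 transcripts became 492, 3, 13 and 10 to 20 in the same settings, and 39, 81 and 64 with the 3 limma settings. In SH3 against control the 0 listed genes became 6 with DESeq2 and 1 with limma on log2(FPKM + 1) or log2(TPM + 1). The 26 gene sums became 258 with DESeq2, 56, 54 and 45 with limma, 8 with only the groups compared, 7 in the other 7 libraries and 11 to 25 without 1 library. The 5 transcripts became 3 with a stricter filter, 358, 15, 17 and 16, 0, 1 and 1 to 12 in those settings. For the average the 1 listed gene became 8 with DESeq2, 0 with limma on log2(FPKM + 0.1) or log2(TPM + 1), 0 in the other 7 libraries and 0 to 1 without 1 library. Its 71 gene sums became 360 with DESeq2, 21 in the other 7 libraries and 27 to 59 without 1 library, and its 21 transcripts 459, 2 and 3 to 21, with 45 and 38 by limma on log2(FPKM + 0.1) and log2(TPM + 1). With the authors' factors 50 of 75 calls of the average were higher, against 40 of 71. In SH3 against SH1 the 1 listed gene became 8 with DESeq2, 4, 3 and 4 with limma and 0 to 2 without 1 library. Its 87 gene sums became 415, 137 and 131 with limma on FPKM, 54 with only the groups compared, 56 in the other 7 libraries and 32 to 93 without 1 library. Its 17 transcripts became 406, 41, 46 and 47 with limma, 4, 5 and 2 to 23. Fewer libraries enter the reduced fits; otherwise the cause was not tested.

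Replicate numbers were not used to pair the samples in the main fit. Same-numbered libraries correlated by -0.0652 to 0.076 in their deviations from group means, and libraries of different groups and numbers by -0.0562 to 0.0953. With 3 libraries per group these values cannot show whether samples were paired by culture or batch. With the replicate block the calls were 1 listed gene, 88 gene sums and 16 transcripts in SH1 against control, 12 gene sums and 2 transcripts in SH3 against control, 0 listed genes, 38 gene sums and 7 transcripts for the average, and 39 gene sums and 5 transcripts in SH3 against SH1. Among the members the block ended the call of GJA1 in the average (-0.60).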
